A study of Mus musculus with 6 samples.

Results

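Complement is a chain of blood and tissue proteins that marks cells and debris for removal. C1q, built from the products of C1qa, C1qb and C1qc, recognises antibody and dying cells; the protease C1s then cuts C4 and C2, and all routes meet at C3. Factor B extends the cleavage of C3 on surfaces, and the fragment C3a signals through the receptor encoded by C3ar1. In kidney, C1q chains and C3ar1 are known as macrophage genes, whereas C3, factor B, C4 and C2 are also made by tubule cells. The 9 genes described here are these components and this receptor: C1qa, C1qb, C1qc, C1s1, C4b, C2, C3, Cfb and C3ar1. They were chosen by symbol, all 9 were found among 32285 genes, and all 9 passed the filter on low counts that left 15955 genes for testing.

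The samples were 6 kidney libraries from female mice aged 100 weeks that carried a TrnE mutation (mitochondrial glutamate tRNA) at different loads, the share of the mitochondrial genome that is mutated. Control kidneys 1 to 3 had loads of 10%, 5% and 15%, so the controls carried the mutation too, and high-load kidneys 1 to 3 had 75%, 75% and 80%. Strain and kidney region were not given in the sources used here. Total counts were 17449270 to 18865997 per library. All 10 proximal tubule markers were tested and abundant, with summed levels of 13889 to 16008 CPM in controls and 4086 to 11718 CPM in high-load kidneys. High-load 1 stood apart: it held the lowest proximal tubule sum, 4086 CPM, against 8373 and 11718 CPM in the other high-load kidneys, and the highest macrophage and lymphocyte marker sums. CPM is a gene's count relative to its library's total, scaled with TMM factors. Group values are mean ± SD (n = 3), controls first, and a fold above 1 means more in the high-load kidneys.

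The comparison asks which complement transcripts differed with the load in mice of 1 age and sex. The C1q chains and C3ar1 were 2.40 to 2.60-fold higher in high-load kidneys, C3 and C4b were higher on average but mainly through 1 kidney, C1s1 and C2 differed by less than their spread, and Cfb was lower in all 3 high-load kidneys. In edgeR's quasi-likelihood test, 0 of the 9 passed an adjusted p of 0.05, which 3 of all genes passed (0.0188%). Without adjustment, 6 of the 9 were higher at p under 0.05 (14% of all genes tested) and 1 was lower (10.2%). At an adjusted p under 0.1 there were 4 higher, the C1q chains and C3ar1 (2.59% of all genes), and 0 lower (0.608%). That count of 4 became 0 without high-load 1, without high-load 3 or without any 1 control, where at most 3 of all genes passed. Without high-load 2 those 4 genes passed an adjusted p of 0.05 in edgeR (3.34% of all genes were called higher). DESeq2 called 5 higher (C1qa, C1qb, C1qc, C4b and C3ar1, against 6.67% of all genes) and 1 lower (Cfb, against 3.88%), and limma-voom called 0. The median log2 fold change of the 9 was 1.26, beside 0.0067 over all genes tested and 0.26 over 32 other tested complement genes. The 9 were chosen with earlier results of these data known, and 3 of them are chains of 1 protein, so this contrast carries no test.

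**Figure D1:**
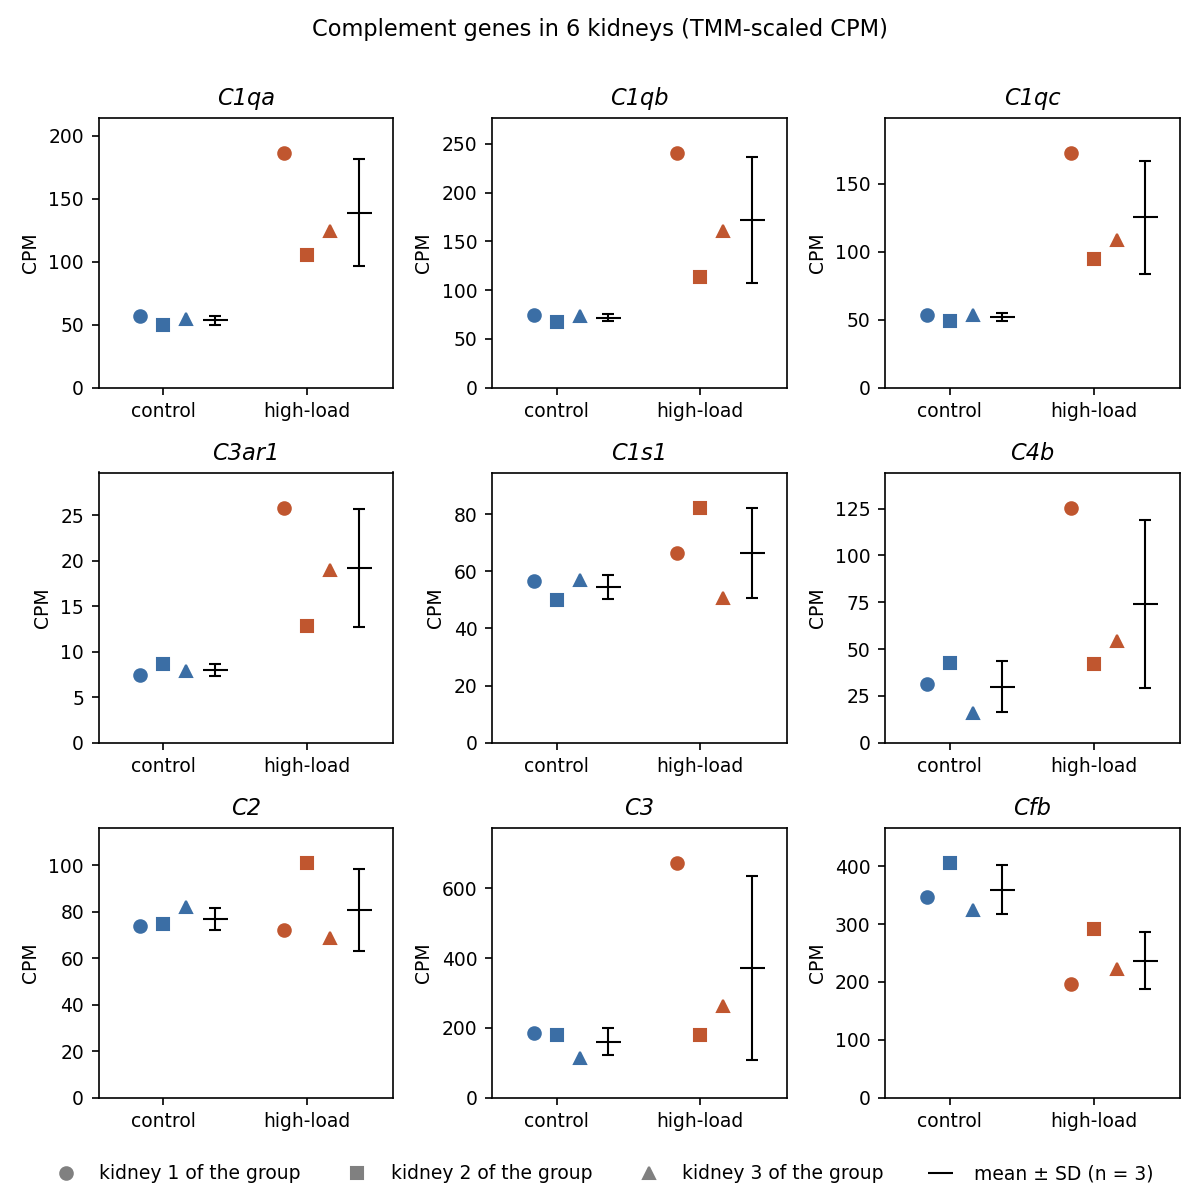
Level of each of the 9 complement genes in each kidney, in TMM-scaled CPM on a linear axis from 0; circles, squares and triangles are kidneys 1, 2 and 3 of a group, and bars are mean ± SD (n = 3). The C1q chains and C3ar1 are higher in all 3 high-load kidneys than in every control, C3 and C4b are highest in high-load 1, and Cfb is lower in all 3.

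C1qa encodes the A chain of C1q (ENSMUSG00000036887, chromosome 4, 136895917 to 136898803, minus strand, mm10). Its level was 56.5, 49.6 and 54.3 CPM in controls 1 to 3 and 186, 105 and 125 CPM in high-load 1 to 3. The controls lay close together and every high-load kidney was above them. The log2 fold change was 1.38 with SE 0.21 (edgeR adjusted p 0.0936). C1qb, the B chain (136880129 to 136886187 on the same strand), was at 74.1, 67.6 and 73.3 CPM in controls and 241, 114 and 161 CPM in high-load kidneys. This was 1.26 on the log2 scale with SE 0.26 (edgeR adjusted p 0.0967). C1qc, the C chain, lies between them (136889804 to 136893065). It was at 53.6, 48.7 and 53.5 CPM in controls and 173, 94.8 and 109 CPM in high-load kidneys, 1.27 with SE 0.23 (edgeR adjusted p 0.0946). The 3 chains ordered the 6 kidneys alike, from control 2 at the bottom through controls 3 and 1 to high-load 2, 3 and 1 at the top.

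The chains also kept similar proportions to each other, although C1qb and C1qc were slightly lower relative to C1qa in every high-load kidney than in any control. The log2 ratio of C1qc to C1qa was -0.04 ± 0.03 in controls and -0.15 ± 0.04 in high-load kidneys, and that of C1qb to C1qa was 0.42 ± 0.03 and 0.28 ± 0.15. After centring each gene's log2 CPM on the 6 kidneys, the root mean square distance between C1qa and C1qc was 0.063. The genes nearest to C1qa outside the 9, among 12039 with a mean of at least 5 CPM, were Casp4, an inflammatory caspase (distance 0.095), Isg15, a ubiquitin-like interferon-induced protein (0.10), Socs3, a brake on cytokine signalling (0.11), Cd53, a tetraspanin of leukocytes (0.11), and Oas2, an interferon-induced nucleic acid sensor (0.11). Their log2 fold changes were 1.16 to 1.55, and none passed an adjusted p of 0.05 in edgeR.

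C3ar1, the receptor for C3a (ENSMUSG00000040552, chromosome 6, 122847138 to 122856161, minus strand), was the least abundant of the 9. It stood at 7.43, 8.68 and 7.89 CPM in controls and 25.9, 12.8 and 19.0 CPM in high-load kidneys. The groups did not overlap, with high-load 1 at the top and high-load 2 nearest the controls, as for the C1q chains. Its log2 fold change was 1.27 with SE 0.26 (edgeR adjusted p 0.0967). Without high-load 1 the C1q chains and C3ar1 were 1.92 to 2.15-fold higher (edgeR adjusted p 0.107 to 0.134). The centred profile of C3ar1 lay 0.11 from that of C1qb. Groups did not overlap for 4 higher members, a pattern that 17.1% of all genes tested showed, and for 1 lower member (16%).

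Macrophage markers were higher beside these 4 genes. Of 14 tested markers, 12 were higher and 0 lower at an unadjusted p under 0.05 in edgeR, beside 14% and 10.2% of all genes tested. Their median log2 fold change was 1.05, and 0 passed the adjusted threshold in edgeR. Their summed level was 428 to 542 CPM in controls and 688 to 1302 CPM in high-load kidneys. Lyz2, macrophage lysozyme, was at 171 ± 9.50 and 412 ± 182 CPM, whereas Csf1r, the receptor for macrophage growth factor, was at 117 ± 40.7 and 114 ± 4.04 CPM. Fcgr1, an antibody receptor, was at 5.70 ± 0.872 and 18.3 ± 5.88 CPM. The summed C1q chains amounted to 34.0, 38.7 and 33.5 CPM per 100 CPM of macrophage markers in controls and to 46.1, 45.6 and 43.4 in high-load kidneys. For C3ar1 the same ratio was 1.37, 2.03 and 1.46 in controls and 1.98, 1.87 and 2.09 in high-load kidneys, where the groups overlapped. Relative to the marker sum, C1q was above every control in each high-load kidney, and C3ar1 was not. This depends on the markers summed, of which Lyz2 and Csf1r were the most abundant. The log2 fold change was 1.27 for Lyz2, -0.05 for Csf1r and 1.68 for Fcgr1, beside 1.26 to 1.38 for the C1q chains. C1q was thus not higher relative to every single marker. In bulk tissue, more cells of a type and more RNA per cell cannot be told apart.

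**Figure D2:**
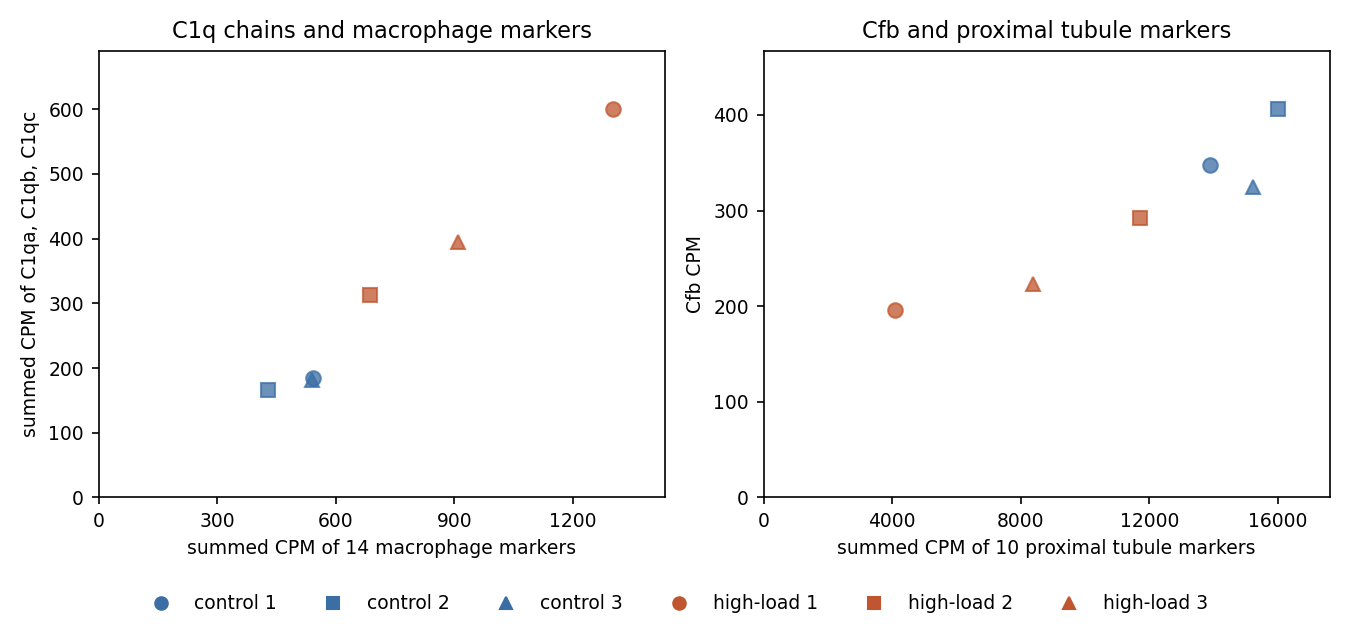
Left, summed CPM of C1qa, C1qb and C1qc against summed CPM of 14 macrophage markers; right, Cfb CPM against summed CPM of 10 proximal tubule markers; each point is 1 kidney, with colour for group and shape for kidney number, on linear axes from 0. High-load kidneys lie to the upper right of the controls on the left (688 to 1302 against 428 to 542 CPM of markers) and to their lower left on the right.

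C3, the protein on which all complement routes converge (ENSMUSG00000024164, chromosome 17, 57203970 to 57228136, minus strand), was at 186, 181 and 115 CPM in controls and 673, 179 and 263 CPM in high-load kidneys. High-load 1 was far above the rest, high-load 3 was moderately above the controls, and high-load 2 lay among them. The log2 fold change was 1.21 with SE 0.50 (edgeR adjusted p 0.200). Without high-load 1 it was 0.47 with SE 0.26 (edgeR adjusted p 0.394), a fold of 1.38 in place of 2.32. C4b, the cleaved partner of C1s (ENSMUSG00000073418, chromosome 17, 34728380 to 34743882, minus strand), showed the same kidney on top. It was at 31.4, 42.7 and 15.6 CPM in controls and 125, 42.3 and 54.2 CPM in high-load kidneys, 1.31 with SE 0.51 (edgeR adjusted p 0.184). Without high-load 1 its fold was 1.62 in place of 2.48. C4a, a near-identical copy of C4b, was counted at 1.29 ± 0.158 and 1.99 ± 0.427 CPM, and the sources used here do not say how shared reads were assigned, so both values are uncertain.

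In high-load 1 the injured tubule markers summed to 9066 CPM and the B cell markers Cd79a, Cd79b and Ms4a1 to 121 CPM. High-load 2 had 4359 and 20.7 CPM and high-load 3 had 8240 and 12.1 CPM, beside 2348 to 3408 and 10.6 to 13.3 CPM in controls. C3 was highest in the kidney with the most of both. Among injury markers, Spp1, osteopontin, was at 2728 ± 538 and 6354 ± 2077 CPM, and Lcn2, lipocalin, at 26.8 ± 12.5 and 340 ± 274 CPM. Spp1 made up most of the injury sum, at 7670 CPM in high-load 1 and 7433 CPM in high-load 3. Lcn2 differed more between these kidneys (631 and 303 CPM), as did the keratin gene Krt18 (179 and 92.8 CPM). Sox9 (28.4 and 32.1 CPM) and Cdh6 (28.9 and 35.7 CPM) were higher in high-load 3. The part of the injury and B cell markers in the C3 and C4b values was not tested. The genes with the profile nearest to C3 were Plin4, a lipid droplet coat protein (distance 0.12), Mthfd1l, a mitochondrial folate enzyme (0.13), Ncf1, a subunit of the phagocyte oxidase (0.17), Muc1, an epithelial mucin (0.19), and Cd84, a leukocyte receptor (0.19).

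Cfb, which encodes factor B (ENSMUSG00000090231, chromosome 17, 34856374 to 34862518, minus strand), went the other way. It was at 348, 406 and 325 CPM in controls and 196, 292 and 223 CPM in high-load kidneys. Every high-load kidney was below every control, with high-load 1 the lowest. The log2 fold change was -0.60 with SE 0.18 (edgeR unadjusted p 0.0136, adjusted p 0.135), and -0.48 without high-load 1. Every one of the 10 proximal tubule markers was on average lower, by a median of -0.86 on the log2 scale. Of them, 3 were lower at an unadjusted p under 0.05 in edgeR, as were 10.2% of all genes tested. Slc34a1, the phosphate carrier, was at 4068 ± 678 and 2220 ± 1239 CPM, and Slc27a2, a fatty acid carrier, at 4124 ± 317 and 2018 ± 865 CPM. Per 1000 CPM of proximal tubule markers, Cfb amounted to 25.0, 25.4 and 21.3 CPM in controls and 47.9, 24.9 and 26.6 CPM in high-load kidneys. On that scale high-load 1 and 3 lay above every control and high-load 2 lay among them. The part of the tubule markers in the lower Cfb was not tested further. Exons of Cfb overlap those of Gm20547 on the same strand, and those of C2 overlap Gm20547 and Zbtb12.

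C2, the partner of C4 in the classical convertase (ENSMUSG00000024371, chromosome 17, 34862604 to 34898265, minus strand), lies beside Cfb but did not share its pattern. It was at 73.9, 74.7 and 82.2 CPM in controls and 72.3, 101 and 68.7 CPM in high-load kidneys, 0.07 on the log2 scale with SE 0.16 (edgeR adjusted p 0.817). C1s1, the C1s protease (ENSMUSG00000038521, chromosome 6, 124530345 to 124542359, minus strand), was at 56.8, 49.8 and 56.9 CPM in controls and 66.3, 82.2 and 50.7 CPM in high-load kidneys, 0.29 with SE 0.18 (edgeR adjusted p 0.351). For both genes high-load 2, not high-load 1, was the highest kidney and the groups overlapped. C1ra, the protease that activates C1s, was at 38.6 ± 6.16 and 54.8 ± 15.4 CPM, and it too was highest in high-load 2, at 66.9 CPM. The summed fibroblast markers shared that top kidney, at 1025 CPM in high-load 2, 748 and 653 CPM in high-load 1 and 3, and 341 to 593 CPM in controls. The most abundant of them were the collagen genes Col1a2 (136 ± 29.9 and 224 ± 39.8 CPM) and Col3a1 (73.7 ± 31.4 and 179.9 ± 47.5 CPM). Pdgfra and Dcn of the same list did not share that top kidney. Pdgfra was at 68.1 ± 15.9 and 45.7 ± 22.1 CPM and was highest in control 3, at 86.3 CPM. Dcn was highest in high-load 1, at 147 CPM, beside 137 CPM in high-load 2. Exons of C1s1 overlap those of Gm16567 on the opposite strand.

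Components that tubule cells also make were set against C1qa within each library. The log2 ratio of C3 to C1qa was 1.72, 1.87 and 1.08 in controls and 1.85, 0.77 and 1.08 in high-load kidneys. The difference of -0.32 was within the spread (exact permutation test, two-sided p = 0.4, where the smallest p this design allows is 0.1). For Cfb the log2 ratio to C1qa was 2.62, 3.03 and 2.58 in controls and 0.07, 1.48 and 0.84 in high-load kidneys, with no overlap. For C2 it was 0.39, 0.59 and 0.60 against -1.37, -0.05 and -0.86, also apart. C1qa by itself did not overlap between groups and C2 differed by 0.07 on the log2 scale, so this ratio mostly restates C1qa. For C4b it was -0.85, -0.21 and -1.80 against -0.57, -1.31 and -1.20, with overlap and a difference of -0.08. The ratios of Cfb, C2 and C4b were picked after the values were seen and carry no test. Per kilobase of exon, Cfb was the most abundant of the 9 in controls, at 127 ± 14.9 CPM per kb, above C1qb at 65.9 ± 3.25 and C1qa at 51.4 ± 3.40. In high-load kidneys C1qb at 158 ± 59.1 and C1qa at 133 ± 40.9 CPM per kb were above Cfb at 83.9 ± 17.6, though these neighbours differed by about their spread. C3 at 31.2 ± 7.73 and C1qc at 26.9 ± 1.43 CPM per kb were not apart in controls, nor were they in high-load kidneys, at 72.3 ± 51.4 and 65.0 ± 21.6. C2, C1s1, C4b and C3ar1 followed in controls at 19.9 ± 1.19, 17.4 ± 1.29, 5.25 ± 2.39 and 1.86 ± 0.147 CPM per kb. In high-load kidneys C1s1 at 21.2 ± 5.04, C2 at 20.8 ± 4.59 and C4b at 13.0 ± 7.90 CPM per kb were within their spread of each other, above C3ar1 at 4.46 ± 1.51.

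**Figure D3:**
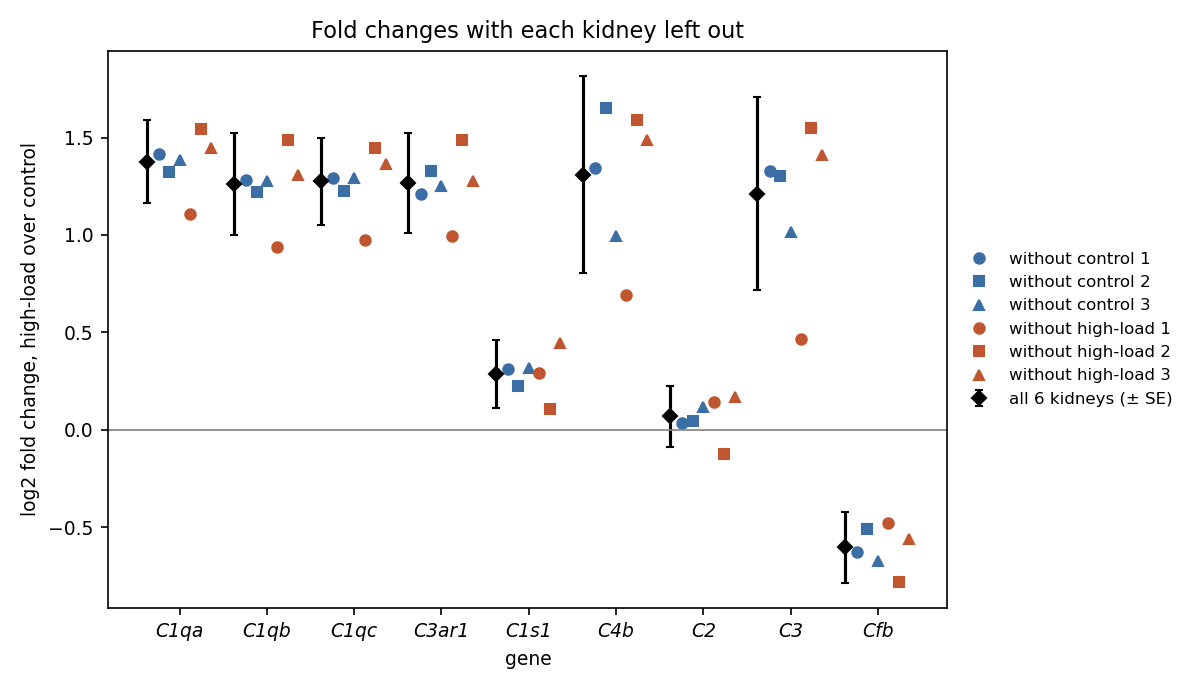
Log2 fold change of each of the 9 genes, high load over control, with all 6 kidneys (black diamond, ± standard error) and with each kidney left out in turn (colour for the group and shape for the number of the kidney left out). Without high-load 1 the value for C3 was 0.47 in place of 1.21 and that for C4b 0.69 in place of 1.31, whereas the C1q chains and C3ar1 stayed at 0.94 or above.

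The table of RefSeq promoters (GRCm38.p6) used here, which is not complete, matched 5 of the 9: C1qb, C1qc, C1s1, C3 and C3ar1. The 250 bases before the start are shown for 1 C1q chain, the receptor and C3, since C1qb and C3ar1 had close profiles and C3 overlapped between groups. All 3 are on the minus strand and are printed 5′ to 3′, with bases matching any of 6 motifs, on either strand, in capitals: PU.1 (GAGGAA), C/EBP (TTNNGNAA), NF-kB (GGG, any 5 bases, CC), GAS (TTCNNNGAA), ISRE (GAAA, any 2 bases, GAAA) and AP-1 (TGANTCA).
C1qb, chr4:136886201-136886450: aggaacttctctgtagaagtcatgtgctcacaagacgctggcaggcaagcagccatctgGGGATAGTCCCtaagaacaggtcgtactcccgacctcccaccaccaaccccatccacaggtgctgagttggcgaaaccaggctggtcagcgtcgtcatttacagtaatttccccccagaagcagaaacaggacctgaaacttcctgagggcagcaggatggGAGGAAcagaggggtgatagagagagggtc
C3ar1, chr6:122856158-122856407: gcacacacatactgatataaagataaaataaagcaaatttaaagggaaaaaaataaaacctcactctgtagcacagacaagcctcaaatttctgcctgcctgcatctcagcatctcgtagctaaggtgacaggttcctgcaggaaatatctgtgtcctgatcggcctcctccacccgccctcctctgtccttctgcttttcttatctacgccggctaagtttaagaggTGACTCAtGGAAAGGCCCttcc
C3, chr17:57228137-57228386: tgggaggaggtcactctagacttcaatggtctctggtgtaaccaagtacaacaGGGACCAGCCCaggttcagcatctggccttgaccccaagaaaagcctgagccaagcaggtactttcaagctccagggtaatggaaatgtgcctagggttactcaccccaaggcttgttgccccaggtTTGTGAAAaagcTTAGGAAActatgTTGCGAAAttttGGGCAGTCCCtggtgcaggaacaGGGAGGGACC
The C1qb window held a PU.1 motif, the site of a myeloid transcription factor, 30 to 25 bases before the start, and the C1qc window held one farther out. Of 32851 promoter windows of this length, 23.3% held one. The C3 window held 3 C/EBP motifs, the binding letters of factors of the acute phase response, 70 to 63, 58 to 51 and 45 to 38 bases before the start, and 36.8% of all windows held at least 1. The C1qc and C1s1 windows held C/EBP motifs too. The C3ar1 window held an AP-1 motif, as did 6.75% of windows, 22 to 16 bases before the start and next to an NF-kB motif. NF-kB motifs were in all 5, for C1s1 in 1 of its 2 windows, and in 45.8% of all windows. Their letters overlap each other in C1qb, C1qc and C3. GAS and ISRE motifs, in 7.02% and 2.98% of windows, were in none of the 5. A match describes letters only.

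Other complement genes were taken from lists of 44 genes, of which 32 were tested. Without adjustment, 9 were higher and 1 was lower at p under 0.05, beside 14% and 10.2% of all genes tested, none passed an adjusted p of 0.05 in edgeR, and the median log2 fold change was 0.26. Among 10 tested regulators, Clu, clusterin, which binds the membrane attack complex, had the largest difference. Its level was 632, 369 and 418 CPM in controls and 2897, 1478 and 3000.1 CPM in high-load kidneys, with no overlap (2.38 on the log2 scale, SE 0.36, edgeR adjusted p 0.0928). Cfi, factor I, which inactivates C3b and C4b, was at 17.9 ± 3.78 and 38.4 ± 10.7 CPM (edgeR adjusted p 0.0983), C4bp, a cofactor of factor I, at 0.392 ± 0.131 and 1.01 ± 0.179 CPM, and Cd55, decay accelerating factor, at 10.9 ± 0.367 and 13.3 ± 1.29 CPM.

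**Figure D4:**
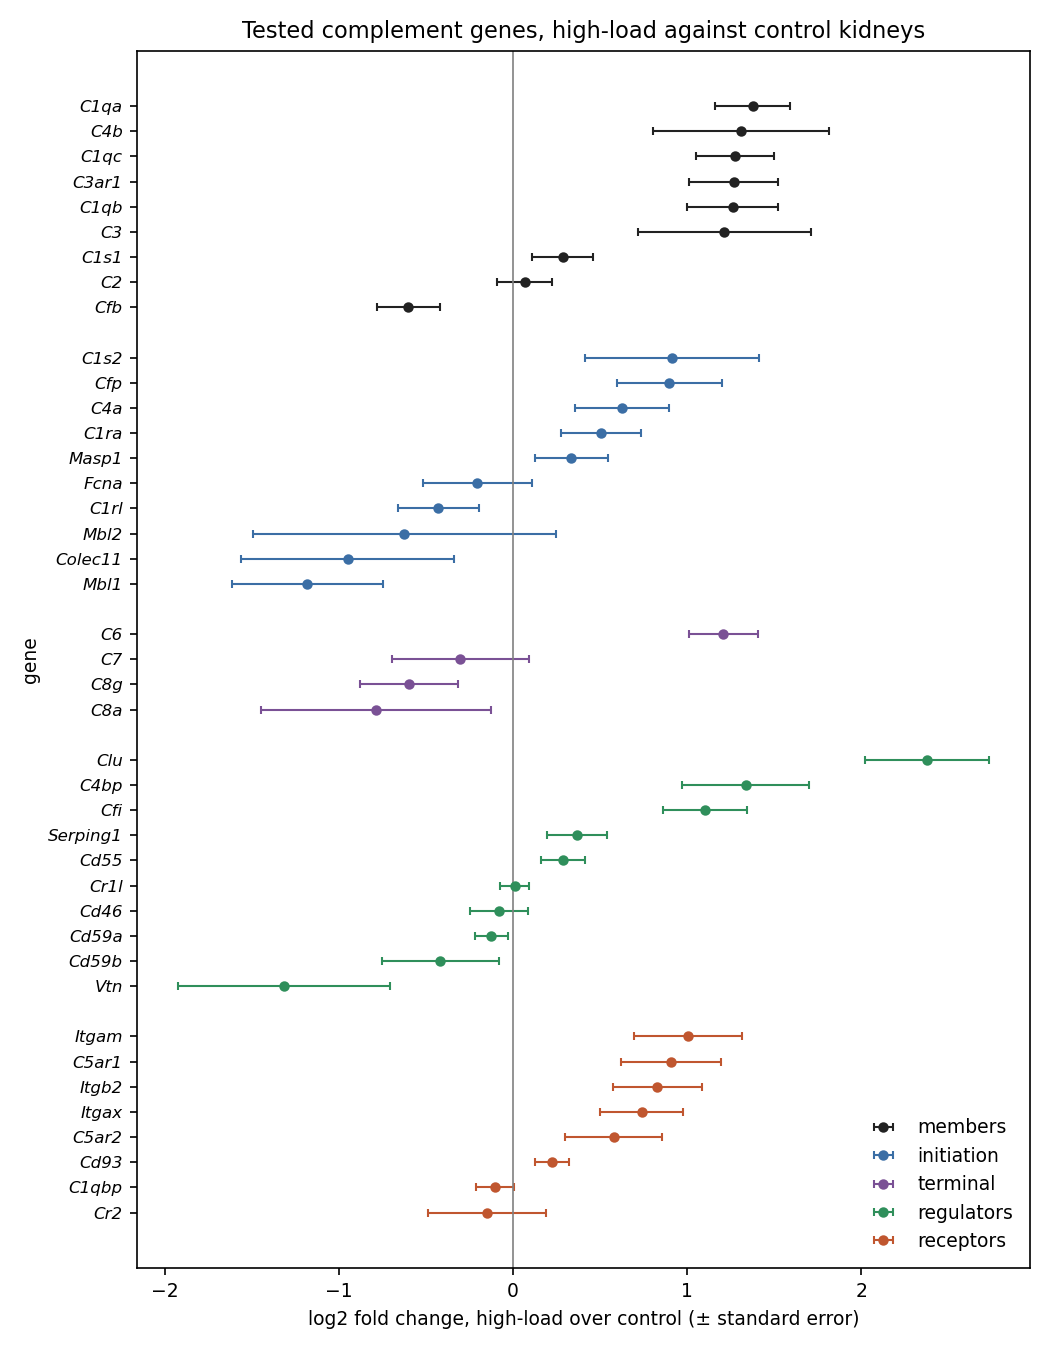
Log2 fold change ± standard error, high load over control, of the 9 complement genes (black) and the 32 other tested complement genes by role (initiation, terminal, regulators, receptors, in colour). Clu at 2.38 is the highest, Cfb at -0.60 is the lowest of the 9, and none passed an adjusted p of 0.05.

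Of 8 tested receptors, 4 were higher at an unadjusted p under 0.05, as were 14% of all genes tested. They were Itgam (11.5 ± 0.787 and 23.0 ± 9.73 CPM), Itgax (15.7 ± 3.06 and 26.2 ± 7.66 CPM) and Itgb2 (19.4 ± 3.62 and 34.5 ± 11.7 CPM), subunits of the leukocyte receptors for cleaved C3, and C5ar1, the C5a receptor (6.75 ± 1.00 and 12.6 ± 4.52 CPM). Their log2 fold changes of 0.74 to 1.00 were below those of the C1q chains, a difference that was not tested. In the terminal part, which builds the membrane pore, C6 was at 2.90 ± 0.443 and 6.71 ± 0.533 CPM (log2 fold change 1.21, SE 0.20, edgeR adjusted p 0.0936). C7 was at 36.2 ± 22.7 and 29.4 ± 1.02 CPM, C8a at 82.9 ± 49.7 and 48.1 ± 27.9 CPM, and C8g at 13.1 ± 4.66 and 8.69 ± 1.76 CPM. Hc, which encodes C5, C8b and C9 had 12, 1 and 8 counts over all 6 libraries and were not tested. Of the 4 tested pore genes, C6 had groups that did not overlap (17.1% of all genes tested were apart in this direction) and the groups of the other 3 overlapped.

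Among genes of initiation, Cfp, properdin, which stabilises the alternative convertase, was at 13.3 ± 3.90 and 24.8 ± 8.10 CPM, with groups apart (edgeR adjusted p 0.156). Mbl1, a mannose-binding lectin, was at 4.35 ± 2.55 and 1.91 ± 0.393 CPM (edgeR adjusted p 0.170). Cfd, factor D, which cuts factor B, was at 0.111, 0.0607 and 0.490 CPM in controls and 93.5, 22.9 and 0 CPM in high-load kidneys. It had no count in high-load 3 and failed the filter. Adipoq, a fat cell hormone looked up after Cfd was seen, was at 0.0554, 0 and 0.544 CPM in controls and 11.2, 3.58 and 0.111 CPM in high-load kidneys, so the same 2 kidneys were high for both genes. Of the other fat cell genes looked up with it, Plin1, Cidec and Retn were also highest in these kidneys. Fabp4, the most abundant, did not differ in this way, at 76.5 ± 10.3 and 73.6 ± 20.8 CPM, and Lep had 9 counts over all 6 libraries. The part of fat tissue in the Cfd values was not tested.

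Of 6 tested liver markers, 2 were on average higher in high-load kidneys and 4 lower. Alb was at 14.3 to 35.7 CPM in controls and 5.76 to 10.8 CPM in high-load kidneys. Apoa1 (1.99 ± 0.954 and 0.688 ± 0.124 CPM) and Apoa2 (5.50 ± 0.989 and 3.06 ± 1.06 CPM) were lower too. Ttr was at 52.7 ± 13.9 and 67.3 ± 37.7 CPM, and Serpina1a at 50.5 ± 67.1 and 27.8 ± 34.9 CPM. Fgb went the other way from Alb, at 6.48 ± 2.14 and 13.9 ± 8.91 CPM with overlap. Ahsg had 76 counts over all 6 libraries and was not tested. Which cells these transcripts came from was not tested. Neutrophil markers were low in both groups (S100a8 2.68 ± 3.78 and 4.09 ± 3.93 CPM, S100a9 2.59 ± 3.65 and 3.67 ± 4.18 CPM). Of the plasma cell list, Jchain was at 98.3 ± 26.5 and 484 ± 416 CPM and Sdc1 at 24.6 ± 3.14 and 51.6 ± 35.6 CPM. Both means came mostly from high-load 1, at 964 CPM for Jchain and 92.7 CPM for Sdc1. High-load 2 and 3 had 278 and 211 CPM of Jchain and 29.7 and 32.6 CPM of Sdc1. Of endothelial genes, Plvap was at 199.7 ± 30.2 and 139 ± 56.5 CPM and Pecam1 at 89.3 ± 17.5 and 79.7 ± 14.9 CPM. Red blood cell Hbb-bs was at 390 ± 494 and 97.9 ± 62.8 CPM, high in control 2 alone, at 961 CPM, and Hba-a1 was at 321 ± 417 and 69.1 ± 46.2 CPM. The B cell genes Cd79a and Cd79b were at 5.16 ± 0.444 and 27.2 ± 31.0 CPM and at 4.23 ± 0.649 and 13.5 ± 14.8 CPM. None of these lists had a member past the adjusted threshold in edgeR.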

How the data were processed

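RNA-seq of 6 kidneys, 3 per group, was analysed. The authors deposited raw counts per Ensembl gene, 1 column per kidney. Per the submitters' processing notes, fastp 0.23.2, HISAT2 2.2.1, SAMtools 1.11, featureCounts 2.0.1 and edgeR were used with mm10. Annotation, strand and shared-read settings were not given in the sources used here. Groups came from sample titles. Each library has its own code and load in the labels, which do not state separate animals outright, so p-values measure the spread between these samples. Symbols matched 32158 of 32285 IDs in GENCODE M21 (mm10), which gave positions and exon lengths.

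Counts were tested with edgeR 4.0.16 in R 4.3.3: low genes were dropped by filterByExpr (minimum count 10), libraries scaled by TMM, and groups compared with a quasi-likelihood F test, robust estimation on. P-values were adjusted by Benjamini-Hochberg for 15955 genes (threshold 0.05). Standard errors came from the F statistic. DESeq2 1.42.0 and limma 3.58.1 (voom) were alternatives, as were other scaling and filters, the block, load as a number and leaving out each library. On simulated counts for 15955 genes of this comparison, 8% of genes altered 1.5-fold were found, as were 62% of those altered 2-fold and 92% of those altered 4-fold. Of 143 calls, 12 were false. The altered genes were drawn only from well-counted genes, and each gene had the same spread in both groups. These shares may therefore be too high for the real kidneys, where 3 genes passed.

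Named genes were the 9, the 4 genes of each complement list with the smallest p, the 2 most abundant tested genes of each marker list with others of the macrophage and tubule lists, and the 5 genes with the profile nearest to C1qa and to C3. Fibroblast, liver, lymphocyte and injury lists served as markers. Cfd, Hc, C8b, C9, Adipoq and the other fat cell genes, Pdgfra, Dcn, Alb, Apoa1, Apoa2, Fgb and Ahsg were named after their values were seen. The members and lists were chosen with earlier results of these data known. A regulator and a lymphocyte marker of these lists are not reported here.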

Additional observations from a re-analysis of the deposited data

How the results depend on the processing

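With 3 kidneys per group, small changes were mostly out of reach. All genes past an adjusted p of 0.05 numbered 3 in the main test, 50 with no filter on low counts, 1698 with DESeq2, 0 with limma-voom, 10 with load as a number, and 0 to 807 with 1 library left out (807 without high-load 2). The member counts under alternatives were added after seeing the data. The 4 members at an adjusted p under 0.1 became 6 with DESeq2 (9.57% of all genes), 0 with limma-voom and 0 to 5 with 1 library left out: 0 without high-load 1, high-load 3 or any control, where at most 3 of all genes passed, and 5 without high-load 2 (9.37% of all genes). There the C1q chains and C3ar1 had an edgeR adjusted p of 0.0213 to 0.0268, and 3.34% of all genes were higher at an adjusted p under 0.05. The 6 higher members at an unadjusted p under 0.05 were 4 to 7 with 1 library left out, and 4 when high-load 1 was left out (C3 and C4b then missed it). The share of all genes at that threshold was counted only in the main test (14% higher), so the stability of these member counts cannot be judged. Of the 9 genes, 8 kept their direction in all 16 alternatives. C2 lay between -0.12 (without high-load 2) and 0.17 (without high-load 3). Library totals as the scale moved the median of all genes to 0.126 on the log2 scale and turned no member. The difference of -0.32 in the C3 to C1qa ratio was -0.63 to -0.09 with 1 library left out. It moved to -0.82 for C3, Cfb, C4b and C2 against the C1q chains and C3ar1, for which no test was run. That set holds Cfb, which was lower (-0.60), and C2, which differed little (0.07). The result thus depended on which genes stood for the components that tubule cells also make.

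Replicate numbers did not pair the kidneys: deviations of same-numbered kidneys correlated at 0.124, -0.182 and 0.0492. With a replicate block, 1 gene passed in place of 3, and 3 members were higher at an adjusted p under 0.1 (3.8% of all genes). The C3 to C1qa difference stayed at -0.32, which a block cannot change in this balanced design, so it is no check.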
